A study of Homo sapiens with 6 samples.

Results

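The mRNAs of 10 genes of the NF-kappaB system were examined in K562 cells after iron chelation: the 5 subunit genes (NFKB1, NFKB2, REL, RELA and RELB), the 3 genes of the classical IkB inhibitors (NFKBIA, NFKBIB and NFKBIE), the feedback inhibitor TNFAIP3 and the nuclear co-regulator BCL3. They were taken by gene name from the GENCODE release 44 annotation, whatever their level, and are 10 of the 62252 genes and 134 of the 251612 matched transcripts in the data. K562 is an established erythroid leukemia line grown in suspension. The Chelator group was kept overnight in 10 µM 21H7, a cell-permeable iron chelator, and the DMSO group in the same volume of its solvent, with 3 biological replicates each, and the labels give no other difference between them. Polyadenylated RNA was sequenced as paired-end reads, so the values are mRNA levels and say nothing of protein, of its location in the cell or of DNA binding.

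NF-kappaB proteins are transcription factors that act as dimers. In resting cells IkB inhibitors hold the dimers in the cytoplasm. In the canonical route the IKK complex phosphorylates the inhibitor, an SCF ubiquitin ligase marks it for degradation, and dimers rich in RelA enter the nucleus. In the non-canonical route the kinase NIK, encoded by MAP3K14, acts through IKK alpha (CHUK) so that the NFKB2 precursor is trimmed to a form that pairs with RelB. NFKB2, RELB, NFKBIA, TNFAIP3 and BCL3 are themselves known NF-kappaB target genes, and the pathway is best known for immune and survival responses.

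After chelation mRNA of the pair of subunits of the non-canonical route rose, and that of the other subunits did not. RELB mRNA was 6.53-fold and NFKB2 mRNA 2.51-fold higher in Chelator than in DMSO cells. NFKB1 fell to 0.628 and REL to 0.723 of the DMSO level, and RELA was not shown to differ. The fall of REL was not under an adjusted p of 0.05 in 4 of 20 other settings. The feedback inhibitor TNFAIP3 rose 1.95-fold and the nuclear co-regulator BCL3 1.98-fold, both just short of the 2-fold threshold used in the study. NFKBIB rose 1.22-fold in a result that several settings removed, and NFKBIA, the inhibitor best known as an NF-kappaB target, was not shown to differ. The study's rule asks for an adjusted p under 0.05 in DESeq2's Wald test and for a log2 fold change above 1 or below -1. By it 2 of the 10 genes were called, both higher. The background share was 10.8% of all genes tested in either direction, 8.18% higher and 2.6% lower, so 2 of 10 is little above it. Without the fold threshold 7 of the 10 genes had an adjusted p under 0.05, against 37.7% of all genes. Of these 5 were higher (background 19.5%) and 2 lower (background 18.3%). That background takes in genes of few counts, and an excess over it is not particular to these 10 genes. At that adjusted p 8 of 14 other inhibitors of the pathway were higher and 4 lower, while 2 of 10 IKK and upstream kinases were higher and 2 lower. The 10 genes were also chosen with earlier results of these data known. The 3 libraries of one group did not overlap the 3 of the other for 8 of the 10 genes, against 49.2% of all genes.

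**Figure D1:**
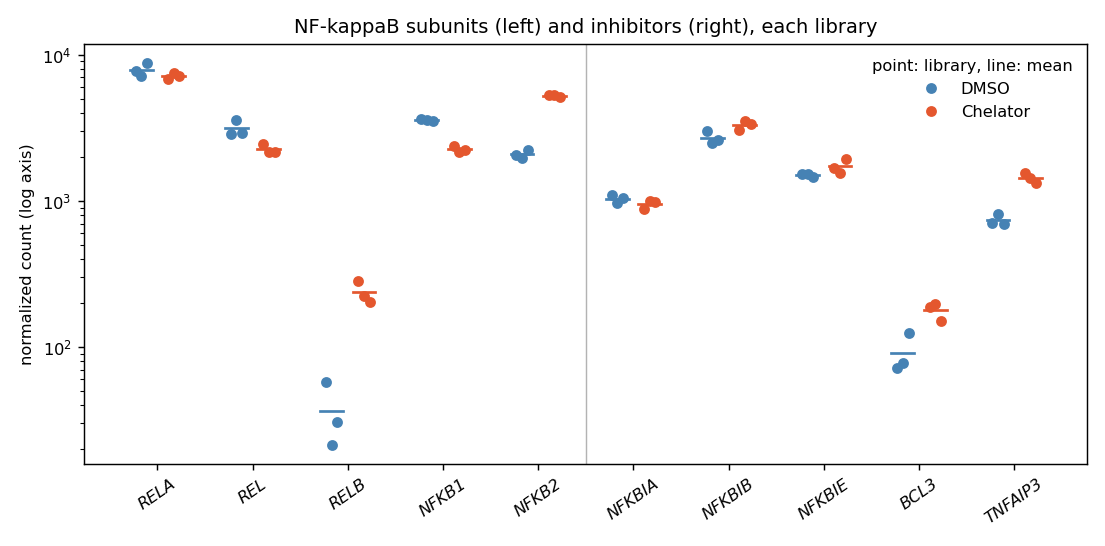
Normalized count of each gene in each of the 6 libraries, on a log axis, with DMSO and Chelator libraries in different colours, points for libraries and lines for group means. RELB and NFKB2 stood apart upwards and NFKB1 and REL downwards, while the points of RELA and NFKBIA overlapped.

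The libraries held 78.6 M to 90.4 M estimated counts in DMSO and 85.4 M to 101.1 M in Chelator, and over all genes 2646 of 24542 were called, 2007 higher and 639 lower. The split depends on the scaling: centring log fold changes on the mean over all genes moved the median gene from 0.016 to -0.19 on the log2 scale and gave 1555 higher and 1247 lower. DMSO replicate 2 stood farthest from the other libraries of its group, and without it 3 of the 10 genes were called and 7 had an adjusted p under 0.05. The mean difference between length and effective length of long transcripts without reads, which follows the fragment length, was 275 to 284 bases in DMSO and 235 to 243 bases in Chelator, with no overlap. Its part in the results below was not tested. TFRC, the transferrin receptor gene that cells raise when iron is low, rose by 2.89 on the log2 scale (SE 0.10). All 11 erythroid markers examined were detected, with a summed TPM of 12809 to 14088 in DMSO and 19650 to 20772 in Chelator. Of these 5 were higher, 4 lower and 2 not under an adjusted p of 0.05, from KLF1 at -0.72 to HBE1 at 0.76 on the log2 scale beside TFRC. Summed TPM of 6 macrophage and monocyte markers was 43.7 to 47.9 in DMSO and 59.4 to 64.6 in Chelator, mostly CD68 and LYZ, with ITGAM called higher (log2 fold change 1.65), while the mean TPM of CD14 was at most 0.11, of CSF1R at most 0.043 and of FCGR3A at most 0.089. Summed TPM of 6 lymphocyte markers was 11.8 to 17.8 and 42.4 to 44.3, mostly CD3D (12.8 and 39.8), with CD3D and CD3E called higher (log2 fold changes 1.59 and 1.97), MS4A1 at 0 in every library and CD79A at 0.10 and 0.15. Summed TPM of 6 megakaryocyte markers was 4.46 to 5.10 and 7.58 to 9.21, with ITGB3 called higher (log2 fold change 1.95) and PF4 at 0. The part of such marker changes in the results was not tested. In bulk RNA a change per cell and a change in which cells contribute cannot be told apart.

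The letters of the kappaB consensus, the site that NF-kappaB dimers bind, stood in promoters of genes that rose, of genes that fell and of genes not shown to differ. In RefSeq promoter windows of GRCh38.p14, 250 bases before to 50 after each annotated start, the kappaB consensus (10 bases, both strands searched, overlapping matches allowed) was found in 11.3% of 35116 windows and for 13.3% of 27305 genes. It was found for 7 of the 8 genes of the set that have such a window, the exception being RELA, and a stricter form of the consensus, held by 7.09% of all genes, was found for the same number. RELB and NFKBIE have no window in this table. The stretches just upstream of 4 starts are shown because they set a gene that fell (NFKB1), genes that rose (NFKB2 and TNFAIP3) and a gene that was not shown to differ (NFKBIA) side by side. Each is written 5′ to 3′ on the strand of the gene with the bases covered by a match in capitals, and stops where an annotated exon of the gene begins or, for NFKB2, at the end of the match.
NFKB1, chr4:102501239-102501329, plus strand: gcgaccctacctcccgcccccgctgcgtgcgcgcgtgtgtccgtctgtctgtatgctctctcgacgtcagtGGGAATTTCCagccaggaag
NFKB2, chr10:102395585-102395693, plus strand: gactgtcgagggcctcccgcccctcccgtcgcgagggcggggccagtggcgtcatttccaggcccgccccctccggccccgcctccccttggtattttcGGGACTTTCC
TNFAIP3, chr6:137867139-137867213, plus strand: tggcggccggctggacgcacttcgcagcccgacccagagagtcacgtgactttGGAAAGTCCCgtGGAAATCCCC
NFKBIA, chr14:35404750-35404869, minus strand: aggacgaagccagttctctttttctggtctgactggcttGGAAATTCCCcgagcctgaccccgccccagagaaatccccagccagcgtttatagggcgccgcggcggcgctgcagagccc

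With the start site counted as 0, the match shown lay at -49 to -40 in NFKB1, at -21 to -12 in NFKB2 and at -81 to -72 in NFKBIA. The same NFKB2 window held another match at -176 to -167, upstream of the stretch shown, and the window of another NFKB2 start held matches at -107 to -97 and at -78 to -69. TNFAIP3 held a match at -67 to -58 and another at -55 to -46, with 2 bases between them. The NFKB2 start shown carried most of that gene's TPM, 70.0%, 78.0% and 74.6% in DMSO against 61.8%, 51.2% and 55.6% in Chelator. Without the transcript NFKB2-209, which starts elsewhere and had no count in DMSO, the Chelator shares were 75.2%, 62.6% and 64.4%, and the groups overlapped. A match describes the letters only, and whether NF-kappaB was bound at any of these sites was not measured.

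RELB encodes the subunit that pairs with processed NFKB2 protein in the non-canonical route (ENSG00000104856.15, chr19:45001461-45038192, plus strand). It had 57.4, 21.5 and 30.8 normalized counts in DMSO and 283, 224 and 203 in Chelator. Every Chelator library was above every DMSO library, and the lowest Chelator value was over 3 times the highest DMSO value. On the log2 scale the change was 2.71 (SE 0.34, DESeq2 adjusted p = 1.57e-14). The gene remained scarce, resting on 50, 23 and 28 estimated counts in DMSO and 266, 280 and 203 in Chelator, and with a pseudocount of 1 TPM its log2 fold change was 1.02. Leaving out each library in turn gave 2.42 to 3.18, the highest without DMSO replicate 1.

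NFKB2 encodes the precursor that is trimmed to the partner of RelB (ENSG00000077150.21, chr10:102394110-102402524, plus strand). It had 2070, 1968 and 2248 normalized counts in DMSO and 5282, 5331 and 5173 in Chelator. The groups were far apart relative to their spread, with means of 2095 ± 142 and 5262 ± 81.0 (SD, n = 3). On the log2 scale it rose by 1.33 (SE 0.081, DESeq2 adjusted p = 1.09e-58). Part of this size came from the length correction: the effective length of the gene's transcripts went from 2509, 2720 and 2546 bases to 2149, 1946 and 2141 bases, and without that correction the log2 fold change was 1.00. It was 1.07 when transcripts under 500 bases were left out, and 1.14 with a trend on GC content and length removed.

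NFKB1 encodes the precursor of the usual partner of RelA (ENSG00000109320.14, chr4:102501330-102617302, plus strand). It had 3620, 3599 and 3541 normalized counts in DMSO and 2382, 2157 and 2219 in Chelator. The DMSO libraries lay within a narrow band and every Chelator library was well below it. The change was -0.67 on the log2 scale (SE 0.079, DESeq2 adjusted p = 5.83e-16), and it stayed between -0.88 and -0.59 over 19 other settings.

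REL encodes c-Rel, a subunit with a transactivation domain that is best known in lymphoid cells (ENSG00000162924.16, chr2:60881491-60931612, plus strand). It had 2890, 3605 and 2920 normalized counts in DMSO and 2457, 2175 and 2177 in Chelator. The groups did not overlap, with DMSO replicate 2 the highest library. The change was -0.47 on the log2 scale (SE 0.11, DESeq2 adjusted p = 7.57e-05), and -0.36 without DMSO replicate 2. With the GC content and length trend removed it was -0.17 (adjusted p = 0.060), and in limma on log2(TPM + 0.1) the adjusted p was 0.086. The reads of REL are also hard to place, because 52.7% of the 31-base words of its canonical transcript occur in other genes and a lncRNA on the same strand, ENSG00000267520.2, shares 5702 exonic bases with it. That lncRNA had 855, 1118 and 823 normalized counts in DMSO and 756, 867 and 864 in Chelator. The groups overlapped for it. Summed with the lncRNA, REL had a log2 fold change of -0.37 (adjusted p = 0.0016).

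RELA encodes the main transactivating subunit of the canonical route (ENSG00000173039.20, chr11:65653599-65663090, minus strand). It had 7805, 7132 and 8780 normalized counts in DMSO and 6878, 7475 and 7201 in Chelator. The groups overlapped, DMSO replicate 2 lying inside the Chelator range. The log2 fold change was -0.14 (SE 0.089, DESeq2 adjusted p = 0.234). It was called in no setting, but its adjusted p crossed 0.05 in some: the change was -0.21 without DMSO replicate 2 (adjusted p = 0.030), -0.35 when fold changes were centred on the mean (adjusted p = 0.00041) and -0.32 after removal of the GC content and length trend (adjusted p = 0.00029).

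**Figure D2:**
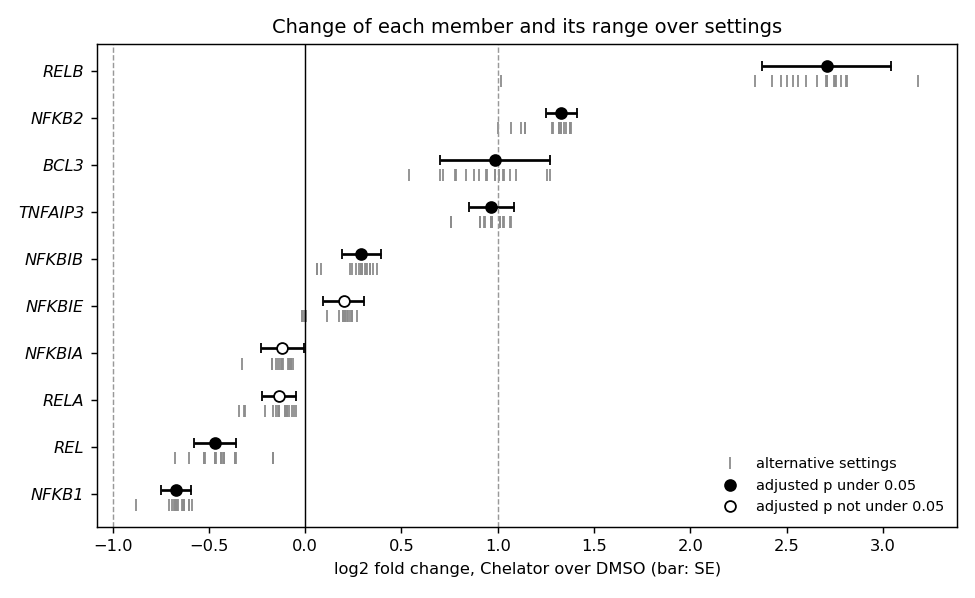
Log2 fold change, Chelator over DMSO, of each of the 10 genes with its SE, and the range it covered over the other settings tried. RELB, NFKB2, TNFAIP3 and BCL3 lay above 0 and NFKB1 and REL below 0 in every setting drawn, and the range of NFKBIE crossed 0.

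Per length, the make-up of the subunit mRNA pool shifted towards NFKB2. Levels of different genes are set side by side in TPM, which divides counts by transcript length. NFKB2 made up 12.4%, 12.5% and 12.4% of the summed TPM of the 5 subunits in DMSO against 29.7%, 29.0% and 29.0% in Chelator. NFKB1 went from a mean of 14.5% to 8.46%, REL from 6.23% to 4.18%, RELA from 66.6% to 56.7% and RELB from 0.238% to 1.44%. RELA was the most abundant subunit in every library, and RELB the scarcest. The ratio of NFKB2 to NFKB1 TPM was 0.864 ± 0.067 in DMSO and 3.46 ± 0.19 in Chelator (SD, n = 3), so NFKB2 went from slightly below NFKB1 to well above it. The ratio of RELB to RELA TPM was 0.0036 in DMSO and 0.026 in Chelator. Part of the shift is the short transcript NFKB2-209, which had no count in DMSO. Without it, an alternative chosen after its values were seen, NFKB2 made up 25.6% ± 0.51 (SD, n = 3) of the pool in Chelator, and the ratio of NFKB2 to NFKB1 was 2.89 ± 0.17. These shares come from the same values as the fold changes above and were not tested again.

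**Figure D3:**
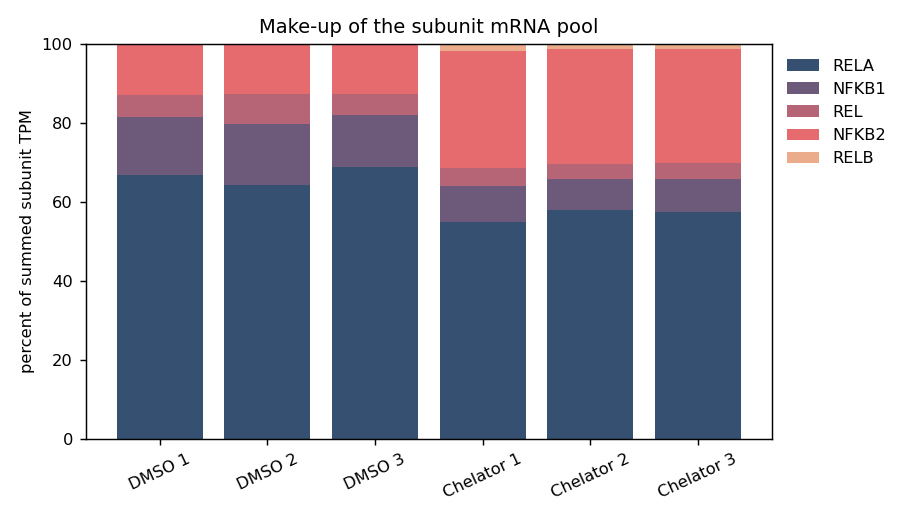
Percent of the summed TPM of the 5 NF-kappaB subunits taken by each subunit, stacked for each of the 6 libraries. The NFKB2 band is wider in all 3 Chelator libraries (29.0% to 29.7%) than in the DMSO libraries (12.4% to 12.5%), and the NFKB1 band narrower.

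Over all 10 genes the order of levels in DMSO was RELA (62.2 TPM), NFKBIB (22.5), NFKB1 (13.5), NFKB2 (11.6), NFKBIA (9.86), NFKBIE (9.45), REL (5.84), TNFAIP3 (2.31), BCL3 (0.808) and RELB (0.218). Of the neighbours in that order, NFKBIA and NFKBIE had overlapping libraries and the rest did not. In Chelator the order was RELA (57.9 TPM), NFKB2 (29.8), NFKBIB (28.2), NFKBIE (11.0), NFKBIA (9.28), NFKB1 (8.62), TNFAIP3 (4.57), REL (4.26), BCL3 (1.62) and RELB (1.47). The neighbours NFKB2 and NFKBIB, NFKBIA and NFKB1, TNFAIP3 and REL, and BCL3 and RELB had overlapping libraries there. NFKB1 came down to the level of NFKBIA. NFKB2 came to overlap NFKBIB in TPM, but without NFKB2-209 its mean was 24.9 TPM, below the 28.2 of NFKBIB, with overlapping libraries (23.9, 25.4 and 25.3 against 25.2, 30.9 and 28.7). The summed TPM of the 3 IkB genes over that of the 5 subunits was 0.489, 0.453 and 0.406 in DMSO and 0.449, 0.477 and 0.501 in Chelator. The groups overlapped, and the difference of the means, 0.026, was smaller than the SD of the DMSO libraries, 0.042. Without NFKB2-209 the Chelator values were 0.474, 0.503 and 0.521 and the difference 0.050, which was above that SD, with groups that still overlapped.

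NFKBIA encodes IkB alpha, the inhibitor that is rapidly degraded and then resynthesised under NF-kappaB control (ENSG00000100906.12, chr14:35401079-35404749, minus strand). It had 1093, 966 and 1049 normalized counts in DMSO and 880, 993 and 987 in Chelator. The groups overlapped. Its change was -0.12 on the log2 scale (SE 0.11, DESeq2 adjusted p = 0.443), and centred on the mean over all genes it was -0.33 (adjusted p = 0.0097). In no setting was it above 0.

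NFKBIB encodes IkB beta, a slower-turning inhibitor (ENSG00000104825.17, chr19:38899700-38908893, plus strand). It had 3012, 2496 and 2601 normalized counts in DMSO and 3042, 3522 and 3360 in Chelator. The groups did not overlap, but DMSO replicate 1 and Chelator replicate 1 nearly met. The log2 fold change was 0.29 (SE 0.10, DESeq2 adjusted p = 0.0113). The adjusted p rose to 0.067 and 0.080 when DMSO replicate 2 or 3 was left out and to 0.092 and 0.060 when Chelator replicate 2 or 3 was, and the log2 fold change was 0.084 when centred on the mean and 0.064 with the GC content and length trend removed. Its exons overlap those of SIRT2 on the opposite strand by 40 bases.

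NFKBIE encodes IkB epsilon (ENSG00000146232.17, chr6:44258166-44265788, minus strand). It had 1526, 1526 and 1457 normalized counts in DMSO and 1689, 1558 and 1937 in Chelator. The groups did not overlap, with Chelator replicate 2 only slightly above the DMSO libraries. Its log2 fold change, 0.20 (SE 0.11, DESeq2 adjusted p = 0.129), reversed to -0.0079 when centred on the mean and to -0.015 with the GC content and length trend removed, while it passed with TMM size factors (0.24, adjusted p = 0.049) and when Chelator replicate 2 was left out (0.27, adjusted p = 0.045).

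TNFAIP3 encodes a ubiquitin-editing enzyme that shuts off signalling upstream of IKK (ENSG00000118503.18, chr6:137867214-137883314, plus strand). It had 707, 809 and 700 normalized counts in DMSO and 1564, 1442 and 1325 in Chelator. Every Chelator library was far above every DMSO library. On the log2 scale it rose by 0.97 (SE 0.12, DESeq2 adjusted p = 1.25e-15), and it was 1.03 without DMSO replicate 2 and 1.03 without Chelator replicate 3, past the fold threshold. WAKMAR2, a lncRNA on the opposite strand, overlaps 95 exonic bases of it.

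BCL3 encodes an IkB-like protein that works in the nucleus, where it binds dimers made from NFKB1 or NFKB2 products (ENSG00000069399.15, chr19:44747705-44760044, plus strand). It had 71.8, 77.5 and 125 normalized counts in DMSO and 188, 197 and 150 in Chelator. The groups did not overlap, and DMSO replicate 3 was the nearest to the Chelator libraries. That library's estimated count of 73 was close to the 70 and 81 of the other DMSO libraries, but its effective length was 998 bases against 1452 and 1577. The rise was 0.99 on the log2 scale (SE 0.28, DESeq2 adjusted p = 0.0020), 1.27 without the length correction and 1.25 without DMSO replicate 3. With both a replicate block and the GC content and length trend removed it was 0.72 (adjusted p = 0.104).

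By edgeR, the only called change in transcript usage within the 10 genes was in NFKB2 and rested on a fragment-sized transcript, while limma called NFKBIE instead. The share of each transcript in its gene was tested in 11938 genes with diffSpliceDGE of edgeR. A call needed a share change above 5 points and an adjusted Simes p under 0.05, which 9.26% of the genes met. All 10 genes were tested and 1 was called. NFKB2-209, 356 bases long and without a defined coding sequence, took 0%, 0% and 0% of the gene's TPM in DMSO and 17.8%, 18.2% and 13.6% in Chelator (adjusted p = 0.0012). It was assigned no count in DMSO and 68, 87 and 55 counts in Chelator, so it entered the test only through the group where it is high and had to differ. Its adjusted p and the call are therefore a description and no support for a change. All of its 356 bases lie within exons of the full-length NFKB2-201. The call was lost when any of the Chelator libraries was left out, because the transcript then fell short of 10 counts in 3 libraries, and limma's diffSplice gave an adjusted p of 0.212. The full-length forms NFKB2-201 and NFKB2-211, which differ in length by only 3 bases, rose in counts from 808, 475 and 937 to 1886, 1707 and 1616 and from 690, 818 and 617 to 1709, 1524 and 1288. Both of these coding forms were therefore higher in every Chelator library than in any DMSO library. NFKB2-210, also coding, went from 258, 442 and 258 counts to 677, 912 and 765. For the coding form NFKB2-204 the groups overlapped, with 241, 311 and 95 counts in DMSO and 287, 340 and 318 in Chelator.

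In NFKBIE the transcript estimates shifted more, by up to 42.2 points, without a call by edgeR and with one by limma. NFKBIE-201 took 63.4%, 47.8% and 74.2% of the gene's TPM in DMSO and 21.1%, 23.9% and 13.7% in Chelator. NFKBIE-204, the canonical form, took 19.2%, 26.0% and 0% in DMSO and 50.3%, 46.9% and 42.3% in Chelator. The groups did not overlap for either form. They are 2581 and 2344 bases long, share 5 identical exons of 6, and differ only in how far the first exon reaches upstream, so the estimate rests on reads over that stretch. The adjusted Simes p was 0.491 in edgeR and 0.0114 in limma's diffSplice, which meets the rule for a call. RELA had an adjusted Simes p of 0.0093 in edgeR with no share change above 4.04 points, and was called without DMSO replicate 1, DMSO replicate 3 or Chelator replicate 2. In the other genes the canonical form was the main one of NFKB1 (40.5% and 42.3% of TPM for NFKB1-201), REL (68.9% and 65.8% for REL-202), NFKBIA (94.5% and 85.2% for NFKBIA-201) and NFKBIB (40.5% and 39.7% for NFKBIB-201). TNFAIP3-203 took 80.0% and 68.2% of that gene. For RELB and BCL3 the transcript shares rest on few counts, 17 to 45 for RELB-201 in DMSO.

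**Figure D4:**
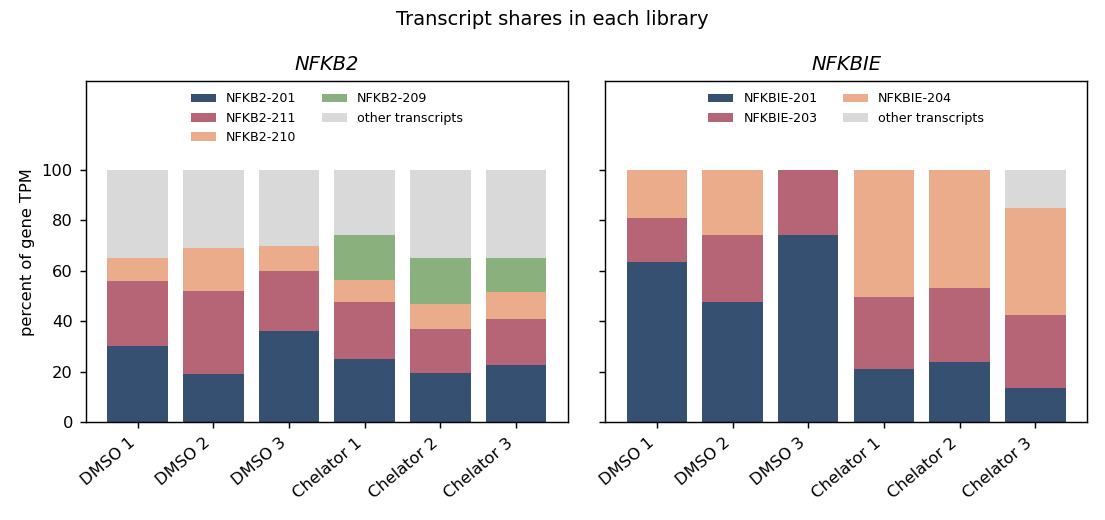
Share of the gene's TPM, in percent, taken by the main transcripts of NFKB2 and NFKBIE in each of the 6 libraries, with the remaining transcripts in grey. NFKB2-209 appears only in the Chelator libraries, and NFKBIE-204 takes a larger and NFKBIE-201 a smaller share there.

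Upstream, the kinase gene that starts the non-canonical route rose and its partner in that route fell. Of 10 genes of the IKK complex and its upstream kinases, 1 was called higher and none lower, and 2 were higher, 2 lower and 6 not under an adjusted p of 0.05. Over all genes 8.18% were called higher, and 19.5% were higher and 18.3% lower at that adjusted p, so these counts are near the background. Their median log2 fold change was 0.040, against 0.016 over all genes. The called gene was MAP3K14, which encodes NIK, the kinase that starts the non-canonical route (620 ± 38.7 normalized counts in DMSO and 1450 ± 66.6 in Chelator, log2 fold change 1.23, SE 0.11, DESeq2 adjusted p = 3.64e-28). CHUK, which encodes IKK alpha, fell by 0.58 on the log2 scale (adjusted p = 6.58e-13). IKBKG, the regulatory subunit, had a log2 fold change of 0.34 (adjusted p = 0.0018), which was 0.13 when centred on the mean and with the GC content and length trend removed and then did not pass. IKBKB, the catalytic subunit of the canonical route, had 0.12 (adjusted p = 0.319), and -0.092 when centred on the mean.

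Among 18 adaptors and ubiquitin ligases 1 was called higher and none lower, with 5 higher, 8 lower and 5 not under an adjusted p of 0.05 and a median of -0.11. The called count is near the background of 8.18%, and the genes higher and lower at the adjusted p alone are set against 19.5% and 18.3%. The called gene was TRAF1, an adaptor of TNF receptors and itself a known NF-kappaB target, at 15.8 ± 6.40 and 183 ± 49.6 normalized counts (log2 fold change 3.52, SE 0.39), or 2.19 in limma on log2(TPM + 0.1). TRAF3, which holds NIK down in resting cells, had a log2 fold change of -0.51 (DESeq2 adjusted p = 1.75e-07). The other genes of the complex that restrains NIK went different ways: TRAF2 had -0.21 (adjusted p = 0.025), BIRC2 0.26 (adjusted p = 0.028) and BIRC3 0.22 (adjusted p = 0.735). These 4 were picked out after their values were seen.

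Ligands were scarce. Of 9 ligand genes 6 passed the filter of more than 10 counts in total and 4 had an adjusted p, of which 2 were called higher (background 8.18%). TNFSF14, a ligand of the lymphotoxin beta receptor, rose from 25.7 ± 7.20 to 90.9 ± 7.52 normalized counts (log2 fold change 1.87, SE 0.40). It rested on 12, 16 and 25 estimated counts in DMSO with effective lengths of 1447, 1400 and 4275 bases, and the log2 fold change was 2.71 without the length correction and 1.27 in limma on log2(TPM + 0.1). IL1A, which encodes interleukin 1 alpha and was named after its values were seen, had 4, 3 and 1 counts in DMSO and 38, 26 and 25 in Chelator, and passed the filter only through the group where it is high, so its call is no support for the list. TNF itself had no count in DMSO and 4, 3 and 5 counts in Chelator, too few for an adjusted p. Of 11 receptor genes 10 passed the filter, 1 was called higher and none lower, with the called count again near the background of 8.18%. At the adjusted p alone 3 were higher (background 19.5%), 1 lower (18.3%) and 6 not under 0.05. The median was 0.21, but TLR2 and TNFRSF11A passed the filter only through the Chelator libraries, so it supports nothing about the list. The called receptor was CD40, a TNF-family receptor that can signal through both routes, at 106 ± 28.7 and 235 ± 8.39 normalized counts (log2 fold change 1.16, DESeq2 adjusted p = 2.42e-05). Its log2 fold change was 0.94 without DMSO replicate 1, 0.95 when centred on the mean and 0.73 in limma on log2(TPM + 1), under the fold threshold of 1 but each with an adjusted p under 0.05.

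Of 14 other inhibitors of the pathway 1 was called higher and none lower, and 8 were higher, 4 lower and 2 not under an adjusted p of 0.05, with a median of 0.27. The called count is near the background of 8.18%, and at the adjusted p alone the background is 19.5% higher and 18.3% lower. PDLIM2, which promotes nuclear degradation of RelA, rose from 21.7 ± 8.26 to 149 ± 61.0 normalized counts (log2 fold change 2.82, SE 0.42), or 1.97 on the log2 scale without the length correction. The 7 genes of the SCF machinery that degrades IkB had 3 higher, 3 lower and 1 not under an adjusted p of 0.05, none past the fold threshold, and a median of -0.19, against the same backgrounds.

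Some target genes outside the set rose and a few fell. Of 24 known NF-kappaB targets other than the 10 genes, 21 passed the filter and 20 had an adjusted p. Of these 9 were called higher, among them CCL2, which had 7, 0 and 1 counts in DMSO and passed the filter only through the Chelator libraries, so that its call supports nothing. The other 8 calls are set against 8.18% over all genes, and none was called lower against 2.6%. The list was chosen with earlier results of these data known, so this comparison is a description only. At the adjusted p alone 13 were higher, or 12 without CCL2, and 3 lower, where all genes had 19.5% and 18.3%, and 4 were not under an adjusted p of 0.05. The median log2 fold change of those past the filter, 1.25, was the value of CSF2, which had 0, 1 and 4 counts in DMSO and 4, 9 and 3 in Chelator. Like CCL2, CSF2 and CXCL1 had 10 or fewer counts over the DMSO libraries and passed the filter only through the Chelator libraries, so this median supports nothing about the list. CXCL8, a neutrophil chemokine, rose from 33.9 ± 5.73 to 335 ± 19.9 normalized counts (log2 fold change 3.31, SE 0.25). GADD45B, a stress and survival gene, rose from 39.9 ± 9.24 to 259 ± 15.4 (2.70, SE 0.26), and IL6, a cytokine, from 46.8 ± 13.2 to 246 ± 27.2 (2.43, SE 0.28). The 3 that were lower were CD83 (-0.98), SOD2 (-0.45) and TNFAIP2 (-0.27), named after their values were seen. NFKB2, RELB, TNFAIP3 and BCL3 thus rose alongside a part of the target list. NFKBIA was not shown to, and NFKB1 and REL, which also hold the kappaB consensus in a promoter window, fell.

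**Figure D5:**
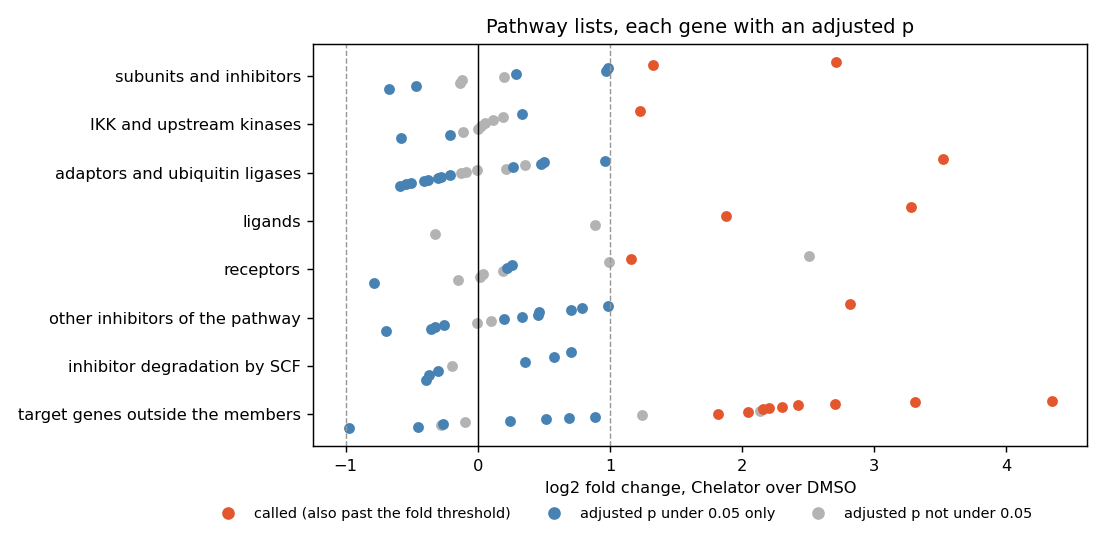
Log2 fold change, Chelator over DMSO, of each gene with an adjusted p in the 10-gene set and in 7 lists of pathway genes, with 1 point per gene, coloured by whether it passed the adjusted p alone or the fold threshold too. Every called gene in these lists lies above 1, and 9 of them are target genes. CCL2 among the targets and IL1A among the ligands passed the filter only through the Chelator libraries.

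The genes whose pattern over the 6 libraries was most like that of RELB and of NFKB2 were found by the Euclidean distance between centred log2 normalized counts among 13491 genes with a mean of at least 100. For RELB they were IL20RB (distance 0.558, log2 fold change 2.65), COL6A2 (0.598, 2.45) and ASS1 (0.680, 2.92). For NFKB2 they were VAV1 (0.112, 1.26), FNDC3B (0.127, 1.31) and BTG1 (0.131, 1.27). With 6 libraries in 2 groups this likeness mostly reflects a similar group difference, since 2450 of the genes had a Pearson correlation above 0.9 with RELB and 2604 with NFKB2.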

How the data were processed

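The authors quantified paired-end reads with Salmon 1.10.2 and deposited, per library, an estimated count, an effective length and a TPM value for 252045 transcripts, with no replicates pooled. The transcript annotation and any bias correction are not given in the sources used here. Non-whole values made up 86.9% to 88.0% of these estimated counts where above 0. Identifiers were matched to GENCODE release 44 (GRCh38, 1-based), leaving 433 transcripts out. Estimated counts were summed per gene and rounded. Genes with a total above 10 were compared in DESeq2 1.42.0 (R 4.3.3, Wald test, Benjamini-Hochberg adjustment over all genes, average transcript length as offset), which follows the authors' test and thresholds. Normalized counts are corrected for depth and this length, and values are mean ± SD over 3 libraries. Transcript usage used edgeR 4.0.16 and alternatives limma 3.58.1, on transcripts with at least 10 counts in 3 libraries. Scripts were tested on simulated data. Depth was 78.6 M to 101.1 M counts per library. Named genes were the 10 members, the 3 called genes of each list with the largest change and a mean of at least 50, the IKK genes with MAP3K14, member transcripts above 10% of TPM, and the 3 most alike genes. The members and lists were chosen with earlier results of these data known. Protein sequences were not analysed here.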

Additional observations from a re-analysis of the deposited data

How the results depend on the processing

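Of the 10 genes, 2 were called by DESeq2 and 4 with edgeR's quasi-likelihood test, limma-voom, TMM size factors or without Chelator replicate 3. There TNFAIP3 and BCL3 also passed the fold threshold. Over all 19 other settings the log2 fold change of TNFAIP3 was 0.76 to 1.07 and that of BCL3 0.54 to 1.27. The threshold was thus passed in some settings and missed by a wide margin in others. Leaving out each library in turn gave 2 to 4 called genes. Whether the replicate numbers pair the libraries could not be decided. Same-numbered libraries had correlations of -0.075, 0.130 and 0.101, and differently numbered ones of -0.162 to 0.082, too few and too small to tell. With a replicate block 3 of the 10 genes, and 2345 of all genes in place of 2646, were called. The sign of NFKBIE turned when centred on the mean (-0.0079), with the GC content and length trend removed (-0.015) and with the replicate block and that trend removed (-0.017), and that of IKBKB when centred on the mean (-0.092). The cause was not tested. RELB, NFKB2, NFKB1 and TNFAIP3 kept their direction and an adjusted p under 0.05 in all 19 other settings run for each.

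For the pathway lists, limma on log2(TPM + 1), whose pseudocount shrinks scarce genes, called 0 of the IKK kinases, 0 adaptors, 0 ligands and 0 receptors. Adaptors called were 2 with edgeR, limma-voom, TMM size factors and no length offset. Receptors called were 0 when centred on the mean and 0 to 1 with libraries left out. Other inhibitors called were 2 with edgeR, limma-voom, TMM size factors, the replicate block and, chosen after seeing the data, transcripts of at least 500 bases, and 1 to 2 with libraries left out. Transcript usage was called in 0 to 3 of the 10 genes with libraries left out, NFKB2, RELA and RELB without DMSO replicate 3. Over all genes, limma on log2(TPM + 1) called 820 and a test against the fold threshold 674. Usage was called in 1105 genes by edgeR, in 3192 by limma, and in 542 and 598 without Chelator replicates 3 and 2. RELB and BCL3 are limited by depth, with 23 to 50 and 70 to 81 counts per DMSO library.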
